A study of Mus musculus with 2 samples.

Results

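The genes described here are 9 members of the insulin-like growth factor (IGF) system: the ligands Igf1 and Igf2, the receptor Igf1r, and the binding proteins Igfbp2, Igfbp3, Igfbp4, Igfbp5, Igfbp6 and Igfbp7. They were taken by symbol from the gene list of the deposited count matrices, in which each of the 9 occurs once among 31053 genes. The samples were 2 single-cell libraries of C57BL/6 mouse mammary gland, made with 10x Genomics 3′ chemistry from cells with the surface markers CD24highCD29+, a gate used for basal (myoepithelial) epithelium. The titles carry the tag P4, which the labels do not explain. The library labelled WT came from mice with no stated modification, and the library labelled Fgd5-ko from mice depleted of Fgd5, a guanine nucleotide exchange factor gene. Its title calls it a "cko", and the labels name no Cre driver, no deleted exon, no age and no number of animals behind either library.

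IGF1 and IGF2 are secreted growth factors that act through IGF1R, a receptor tyrosine kinase that signals through IRS docking proteins to PI3K and AKT and favours growth and survival. In extracellular fluid the ligands are held by IGF binding proteins, which prolong their half-life and can block or present them to the receptor, and which proteases such as pregnancy-associated plasma protein A release. IGF1 is classically a stromal factor of the mammary gland under growth hormone, and IGFBP5 is known from the involuting gland, where it binds ligand away from the epithelium. IGFBP7 binds IGFs weakly and is better known as a protein of vessels and basement membranes.

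Igfbp2 and Igfbp5 are neighbours that face each other. In GENCODE M21 (GRCm38), Igfbp2 (ENSMUSG00000039323) lies at chr1:72824503-72852474 on the plus strand and Igfbp5 (ENSMUSG00000026185) at chr1:72857932-72874884 on the minus strand, with 5457 bases and 0 coding genes between their ends. Igfbp4 (ENSMUSG00000017493) lies at chr11:99041244-99054392 on the plus strand. These 3 are shown by the 250 bases before their RefSeq start (GRCm38.p6), because Igfbp2 and Igfbp4 shared a pattern over basal cell states that Igfbp5 did not. Capitals mark GGGCGG (a GC box) or TATAAA on either strand. Igfbp2 has a further RefSeq start, not printed.
Igfbp2, chr1:72824230-72824479, plus strand: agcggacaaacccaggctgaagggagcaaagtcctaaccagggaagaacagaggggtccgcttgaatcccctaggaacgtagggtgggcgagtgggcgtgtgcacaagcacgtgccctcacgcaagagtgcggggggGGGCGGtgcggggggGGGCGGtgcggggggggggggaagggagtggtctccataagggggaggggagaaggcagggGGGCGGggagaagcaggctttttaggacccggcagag
Igfbp4, chr11:99040994-99041243, plus strand: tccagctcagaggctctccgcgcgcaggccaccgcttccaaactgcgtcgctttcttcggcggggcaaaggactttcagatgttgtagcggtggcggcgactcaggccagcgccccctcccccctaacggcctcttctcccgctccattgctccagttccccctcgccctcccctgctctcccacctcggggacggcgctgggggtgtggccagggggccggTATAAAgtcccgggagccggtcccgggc
Igfbp5, chr1:72874866-72875115, minus strand: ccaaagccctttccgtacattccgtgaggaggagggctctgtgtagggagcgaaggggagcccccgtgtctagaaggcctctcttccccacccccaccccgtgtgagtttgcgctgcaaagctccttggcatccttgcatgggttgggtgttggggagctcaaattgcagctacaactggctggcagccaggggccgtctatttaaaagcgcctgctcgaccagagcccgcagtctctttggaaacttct

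The Igfbp2 stretch holds GGGCGG 3 times, the Igfbp4 stretch holds TATAAA once, and the Igfbp5 stretch holds neither. Of 32841 mouse promoters of this length, 32.7% hold GGGCGG and 12.4% hold TATAAA. Their GC content is 67.2% for Igfbp2, 69.2% for Igfbp4 and 58.8% for Igfbp5, against a median of 52.4% over all of them. A match of letters is a description and not a binding site. In the same annotation Igf1 (ENSMUSG00000020053) lies at chr10:87858265-87937042 (plus strand), Igf2 (ENSMUSG00000048583) at chr7:142650766-142666816 (minus) and Igf1r (ENSMUSG00000005533) at chr7:67952827-68233668 (plus). Igfbp3 (ENSMUSG00000020427) lies at chr11:7206086-7213923 (minus), Igfbp6 (ENSMUSG00000023046) at chr15:102144362-102149511 (plus) and Igfbp7 (ENSMUSG00000036256) at chr5:77349240-77408041 (minus).

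The libraries differed in depth and in the cells they held. The matrices hold 60566053 UMIs (unique molecular identifiers, the counted molecules) over 10735 barcodes in the library labelled WT and 136697801 over 8798 in the library labelled Fgd5-ko. The authors' deposited cell coordinates list 6588 and 6064 of these barcodes as cells, whose median depth was 4954 and 15712 UMIs; 21 and 27 of these barcodes also occur in the other library. Of the listed cells, 6357 and 6029 were basal-like, and all 10 markers of the basal list were detected there, at a summed 21394 and 16140 CPM (the UMIs of a gene over all UMIs of the class, scaled to 1000000). Barcodes outside the list with at least 1000 UMIs, 3490 and 1626, held fibroblast-like, endothelial-like and mural cells and were analysed apart. In basal-like cells Fgd5 itself stood at 0.841 CPM (30 UMIs) in the library labelled WT and 4.05 CPM (419 UMIs) in the library labelled Fgd5-ko, which goes against the labels. Whether the counted 3′ end lies inside the deleted part is not given. For that reason the libraries are called by their labels throughout. There was 1 library per group, so no difference between them was tested; the 95% intervals given cover counting error only.

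Among the members, basal-like cells carried the receptor and binding proteins, whereas Igf1 was found mainly in stroma outside the sorted list. Of the 9 members, 8 had at least 20 UMIs over both libraries in basal-like cells; 7 of these were at least 1.5-fold lower in the library labelled Fgd5-ko, 0 were higher, and Igf1r lay within 1.5-fold. Over all 15060 genes with that minimum, 10.5% were at least 1.5-fold lower and 26.9% at least 1.5-fold higher. The median log2 ratio (Fgd5-ko over WT) was -1.08 over the 8 members and 0.23 over all genes. Scaling by TMM shifted every ratio by -0.17 and turned the all-gene shares into 14.4% lower and 19.2% higher.

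**Figure D1:**
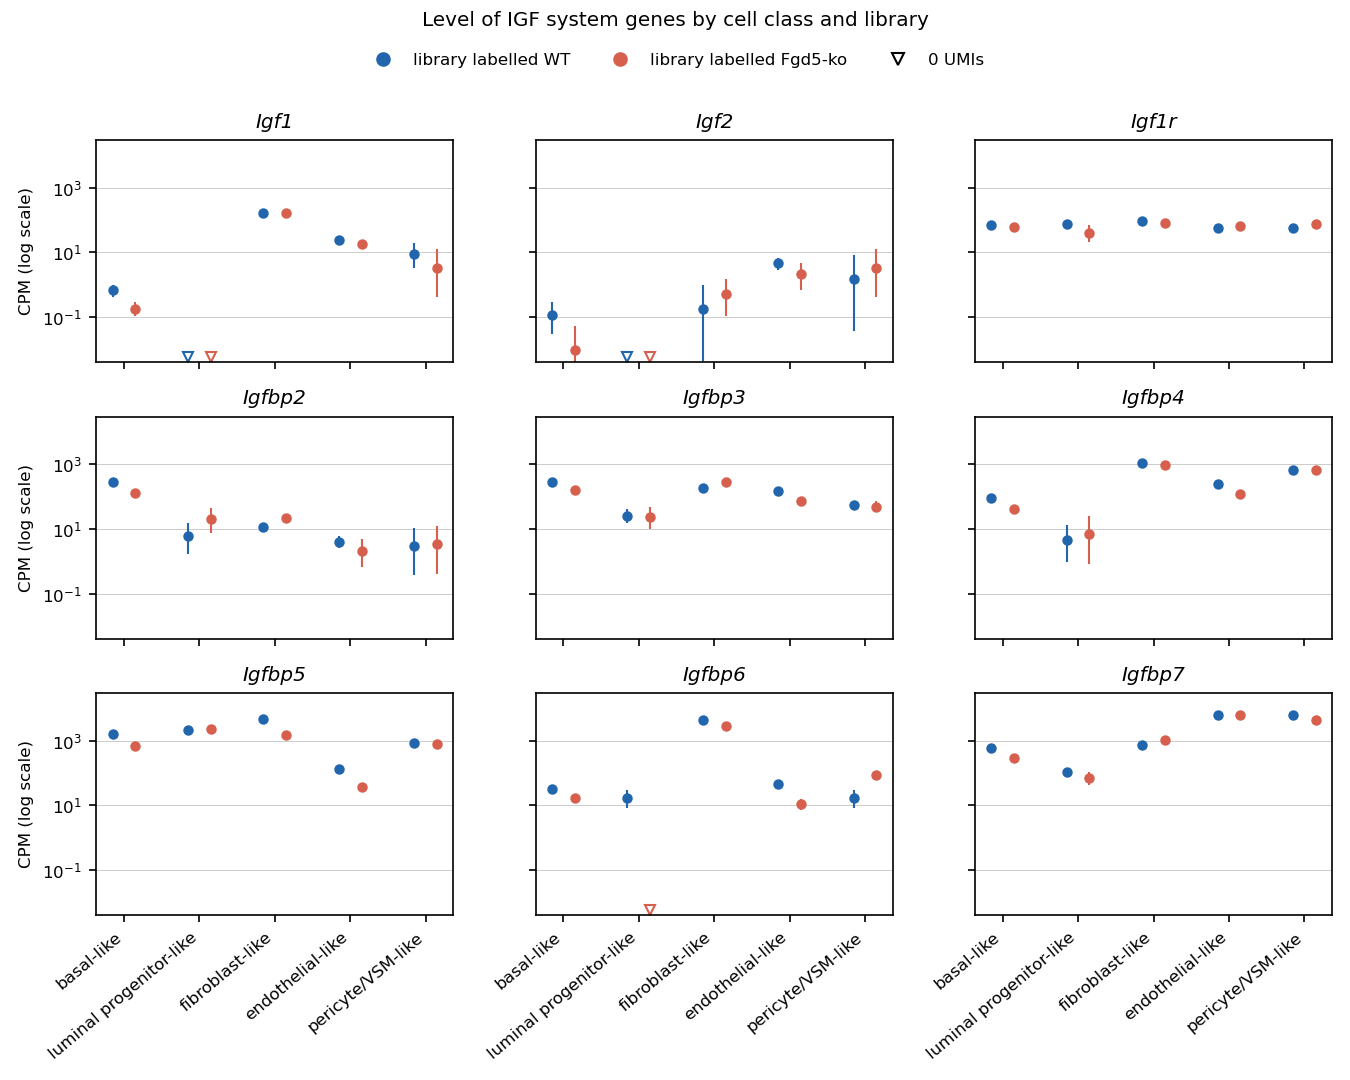
Level of each member in 5 cell classes, in CPM on a log axis, for the library labelled WT and the library labelled Fgd5-ko, with exact Poisson 95% intervals for counting error. Igf1 sits highest in fibroblast-like barcodes (171 and 164 CPM), Igfbp7 in endothelial-like barcodes (6113 and 6305 CPM), and Igfbp2 in basal-like cells (292 and 129 CPM).

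Igf1, the main ligand, was a fibroblast gene in these files. Fibroblast-like barcodes held 991 Igf1 UMIs in the library labelled WT (171 CPM, 913 barcodes) and 967 in the library labelled Fgd5-ko (164 CPM, 480 barcodes). Their log2 ratio was -0.06 (-0.19 to 0.07), so counting error alone spans a ratio of 1. Among classes with at least 20 Igf1 UMIs over both libraries, endothelial-like barcodes came next, at 23.8 CPM (124 UMIs) and 18.3 CPM (44 UMIs), again with an interval that held 0 (-0.38, -0.91 to 0.13). Basal-like cells lay far lower, at 0.673 CPM (24 UMIs; 0.431 to 1.0) and 0.184 CPM (19 UMIs; 0.111 to 0.287). The order fibroblast, endothelial, basal held in both libraries with intervals that did not overlap.

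The few basal Igf1 UMIs have to be read beside free RNA from fibroblasts. Fibroblast markers other than Dcn summed to 33.5 and 20.5 CPM in basal-like cells, and none of the list was at 0. Scaling the fibroblast-like Igf1 level by that carried share gives 0.263 CPM in the library labelled WT and 0.189 CPM in the library labelled Fgd5-ko. The measured level in the latter (0.184 CPM) lay at this estimate, and that in the former lay above it, with a lower bound of 0.431. The estimate covers fibroblast-like barcodes only. By the same scaling, endothelial-like and mural barcodes gave 0.065 and 0.020 CPM under the WT label, and unnamed clusters were not included. Whether basal-like cells themselves make Igf1 RNA was not tested. After each cell was thinned to 2000 UMIs, 0.159% and 0.0498% of basal-like cells held an Igf1 UMI. No Igf1 UMI was found in luminal progenitor-like cells of the list, of which there were 118 and 17.

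Within the stroma, Igf1 differed between fibroblast-like clusters. It was highest in the cluster led by Angptl1 and Smoc2 (65 and 69 barcodes), at 702 CPM (604 to 810) under the WT label and 372 CPM (325 to 424) under the Fgd5-ko label. The cluster led by Crabp1 (212 and 187 barcodes) held 210.3 and 181 CPM. A further fibroblast-like cluster, with 267 barcodes in the library labelled WT, held 240 CPM there (216 to 265), from 377 UMIs. The cluster led by Krtdap and Pi16, with 369 barcodes in the library labelled WT and 3 in the other, held 52.1 CPM, and the cluster led by Mrgprg and Has1, with 204 barcodes of the library labelled Fgd5-ko and 0 of the other, held 95 CPM. The fibroblast-like class was thus made of different clusters in the 2 libraries, which stands beside every fibroblast-like ratio given here. An unnamed cluster led by Ccl20 and Marco held 308 and 153 CPM of Igf1, and an endothelial-like cluster led by Sele, Selp and Vwf held 129 CPM in the library labelled WT.

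Igf2, the fetal growth ligand, was close to undetected. Basal-like cells gave 4 UMIs in the library labelled WT and 1 in the library labelled Fgd5-ko, out of 35684728 and 103464547, and no ratio was taken. After thinning, 0 of 6296 and 0 of 6029 basal-like cells held an Igf2 UMI, where 3 cells would be 0.0476% and 0.0498%. Fibroblast-like barcodes gave 1 and 3 UMIs. The endothelial-like class gave 24 UMIs (4.60 CPM) and 5 UMIs (2.08 CPM), and 22 of the 24 fell in 1 cluster, led by Gkn3 and Sema3g, at 28.2 CPM (17.7 to 42.7). Gkn3 and Sema3g are known from arterial endothelium. The antisense gene Igf2os had at most 1 UMI in each class examined, as had Igf1os.

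Igf1r, the receptor, was found in epithelial, fibroblast-like and vascular classes and was low in hormone-sensing luminal-like cells. In basal-like cells it stood at 72.3 CPM (69.6 to 75.2) under the WT label and 60.3 CPM (58.9 to 61.9) under the Fgd5-ko label, a log2 ratio of -0.26 (-0.33 to -0.19). Fibroblast-like barcodes held 90.4 and 80.4 CPM, endothelial-like barcodes 56.2 and 63.6 CPM, and mural (pericyte and vascular smooth muscle-like) barcodes 57.0 and 76.6 CPM. Luminal progenitor-like cells held 73.1 and 41.0 CPM, while hormone-sensing luminal-like cells of the library labelled WT (53 cells) held 12.0 CPM. The highest level of a cluster was in the unnamed Ccl20 and Marco cluster, at 274 CPM (235 to 317) and 236 CPM (210 to 266). In all 10 clusters outside the list that held at least 50 barcodes of both libraries, the interval of the Igf1r ratio held 0, with ratios from -0.37 to 0.59. Counts were low in some of them, such as 17 and 49 UMIs in the Angptl1 and Smoc2 cluster (-0.48 to 1.23). Such wide intervals do not show that the levels were equal.

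Igfbp5, the binding protein of the involuting gland, gave 58893 and 70361 UMIs in basal-like cells. That is 1650.4 CPM in the library labelled WT and 680.0 CPM (675 to 685) under the Fgd5-ko label, a log2 ratio of -1.28 (-1.29 to -1.26). In basal-like barcodes outside the list the difference was smaller, at 663 and 593 CPM (-0.16, -0.25 to -0.07). The 118 and 17 luminal progenitor-like cells held 2233 CPM (2120 to 2350) and 2327 CPM (2155 to 2508), with a ratio of 0.06 (-0.07 to 0.19). The 28 and 6 luminal progenitor-like barcodes outside the list held 2365 and 654 CPM (-1.85, -2.09 to -1.62), so this class gave no single answer. Listed hormone-sensing luminal-like cells were low, at 71.9 CPM (51.8 to 97.1) under the WT label. Outside the list such barcodes held more, at 246 CPM (219 to 276, 60 barcodes) and 369 CPM (291 to 462, 5 barcodes). These values also lay below those of basal-like barcodes outside the list. After thinning to 2000 UMIs, 82.4% and 56.9% of basal-like cells held an Igfbp5 UMI. The share was 5.66% of the listed hormone-sensing luminal-like cells of the library labelled WT, whose median depth was 12060 UMIs. The other library had 5 such cells, and the part of free RNA in the basal shares was not tested. Without thinning the basal shares were 92.1% and 89.5%, at median depths of 4947 and 15723 UMIs.

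**Figure D2:**
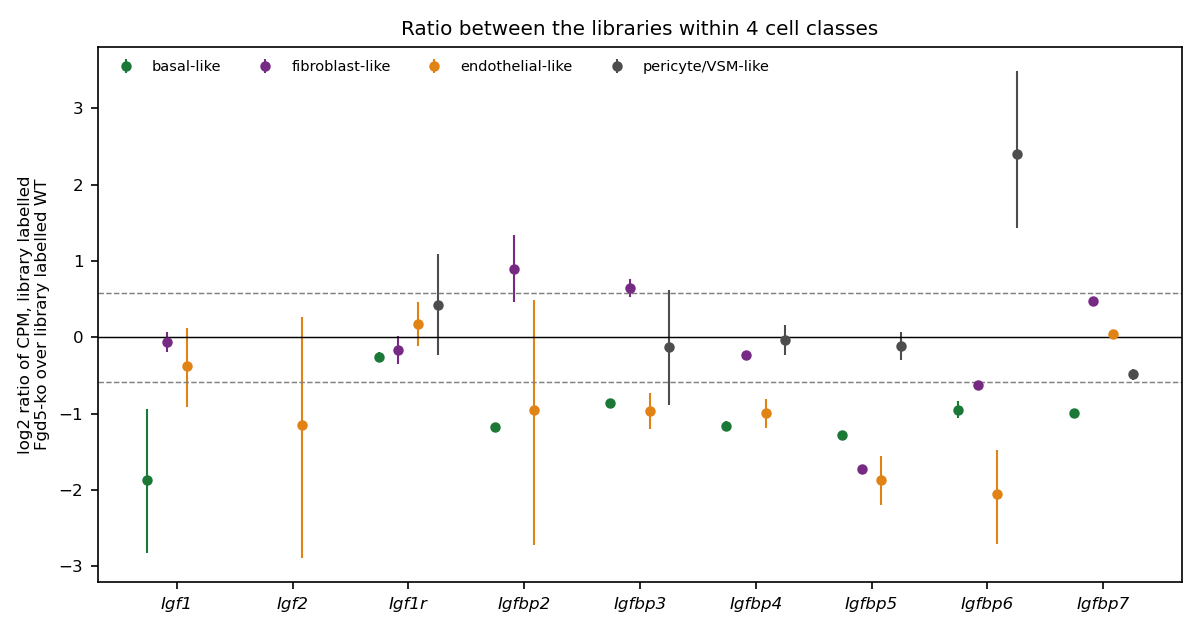
log2 ratio of each member (library labelled Fgd5-ko over library labelled WT) in basal-like, fibroblast-like, endothelial-like and mural cells, with exact conditional 95% intervals for counting error, where at least 20 UMIs were counted over both libraries. Igfbp5 lies at -1.28 in basal-like, -1.72 in fibroblast-like and -1.87 in endothelial-like cells, and at -0.11 in mural cells; dashed lines mark a 1.5-fold ratio.

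In the stroma Igfbp5 was highest in fibroblast-like barcodes, at 4884 and 1482 CPM, a log2 ratio of -1.72 (-1.76 to -1.69). The Krtdap and Pi16 cluster, nearly all of the library labelled WT, held 9004 CPM, and the Mrgprg and Has1 cluster, all of the library labelled Fgd5-ko, held 2828 CPM. Outside the list, 10 clusters held at least 50 barcodes of both libraries, 4 of them unnamed. In 10 of 10 of these the Igfbp5 interval lay below 0, with ratios from -2.95 to -0.39 and a median of -1.67. In the Crabp1 cluster the levels were 722 and 164 CPM. Mural barcodes held 834 and 771 CPM as a class (-0.11, -0.29 to 0.07). The mural cluster among the 10 (120 and 51 barcodes) held 890 and 512 CPM (-0.80, -1.06 to -0.54). The other mural barcodes fell under the limit of 50 and are not in that count, and the class as a whole did not show the ratio of that cluster. B cell-like barcodes, which should lack the gene, held 455 CPM (27 barcodes) and 195 CPM (8 barcodes), from 35 and 14 UMIs. The part of free RNA and of doublets in these values and in the low endothelial-like ones (138 and 37.8 CPM) was not tested.

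**Figure D3:**
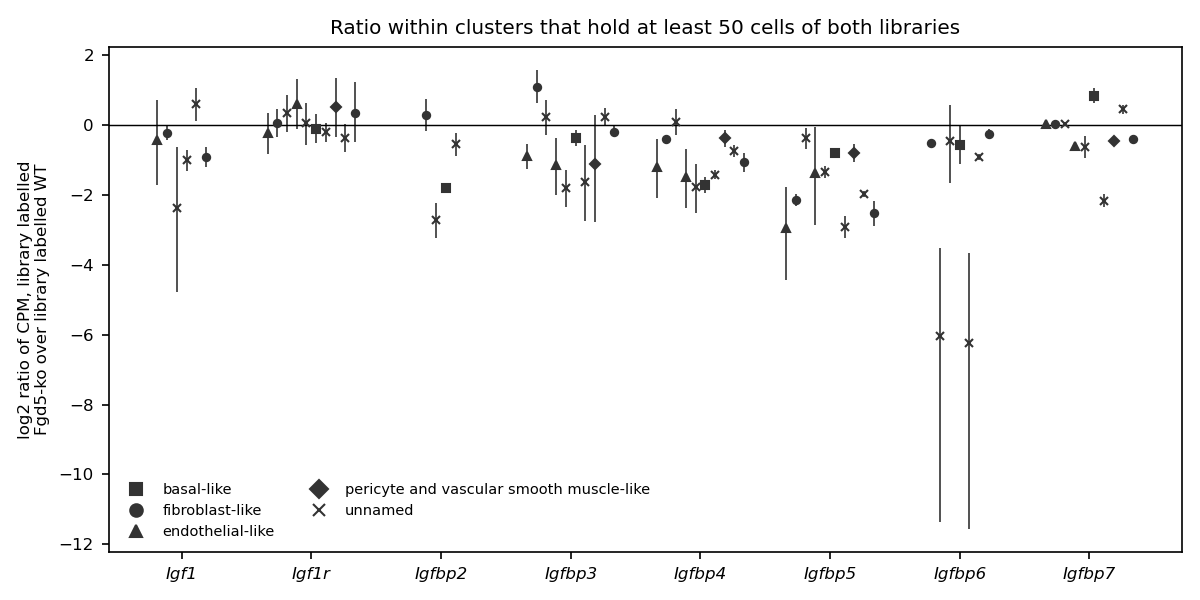
log2 ratio of each member (library labelled Fgd5-ko over library labelled WT) within the 10 clusters outside the list that held at least 50 barcodes of both libraries; each point is 1 cluster with its exact 95% counting interval, where at least 20 UMIs were counted, and its shape gives the class. All 10 Igfbp5 points lie below 0, the 10 Igf1r intervals hold 0, and Igfbp7 points lie on both sides.

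Igfbp2, which binds IGF2 with preference, was the most basal of the members in its distribution. Basal-like cells held 292 CPM (287 to 298) under the WT label and 129 CPM (127 to 131) under the Fgd5-ko label, a log2 ratio of -1.18 (-1.22 to -1.14). Fibroblast-like barcodes held 11.7 and 21.8 CPM, endothelial-like barcodes 4.03 and 2.08 CPM, and luminal progenitor-like cells 6.09 and 20.5 CPM (4 and 6 UMIs). Basal-like barcodes outside the list (87 and 337, with median depths of 19065 and 42357 UMIs) held 583 and 186 CPM, a ratio of -1.65 (-1.75 to -1.54). The fibroblast-like ratio was 0.90 (0.46 to 1.35), on the other side of 0 from the basal one. After thinning, 23.8% and 15.7% of basal-like cells held an Igfbp2 UMI.

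Igfbp4, the binding protein that pregnancy-associated plasma protein A cleaves, was a stromal gene with a minor basal level. Fibroblast-like barcodes held 1098 and 935 CPM, mural barcodes 675 and 659 CPM, and endothelial-like barcodes 238 and 119 CPM. Basal-like cells held 92.3 CPM (89.1 to 95.5) and 41.1 CPM (39.9 to 42.4), a log2 ratio of -1.17 (-1.23 to -1.10). In the 53 listed hormone-sensing luminal-like cells of the library labelled WT 0 UMIs were counted. The 60 such barcodes outside the list held 14.0 CPM (17 UMIs, 8.13 to 22.3). The unnamed Ccl20 and Marco cluster held 1707 and 638 CPM. The Igfbp4 interval lay below 0 in 9 of the 10 clusters shared by both libraries.

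Igfbp2 and Igfbp4 were concentrated in 1 basal state, and Igfbp5 was not. Basal-like cells were clustered again without any IGF gene among the variable genes, which gave 11 states, of which all but 1 came almost wholly from 1 library; with 1 library per group, such a state may be that library and not a cell type. The state with Csrp2 and Gm33651 among its leading genes (840 cells, all of the library labelled WT) held 823 CPM of Igfbp2 (801 to 844) and 280.4 CPM of Igfbp4 (268 to 293). The largest state of that library (4847 cells, led by Gm26532 and mt-Nd4l) held 165 and 40.3 CPM of the pair, and the state led by 4631405K08Rik and Snhg20 (528 cells) held 146 and 46.1 CPM. Igfbp5 stood at 1700, 1675 and 1823 CPM in these 3 states. Igfbp7 ran the other way, with 225 CPM (214 to 236) in the Csrp2 state and 695 and 792 CPM in the other two.

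**Figure D4:**
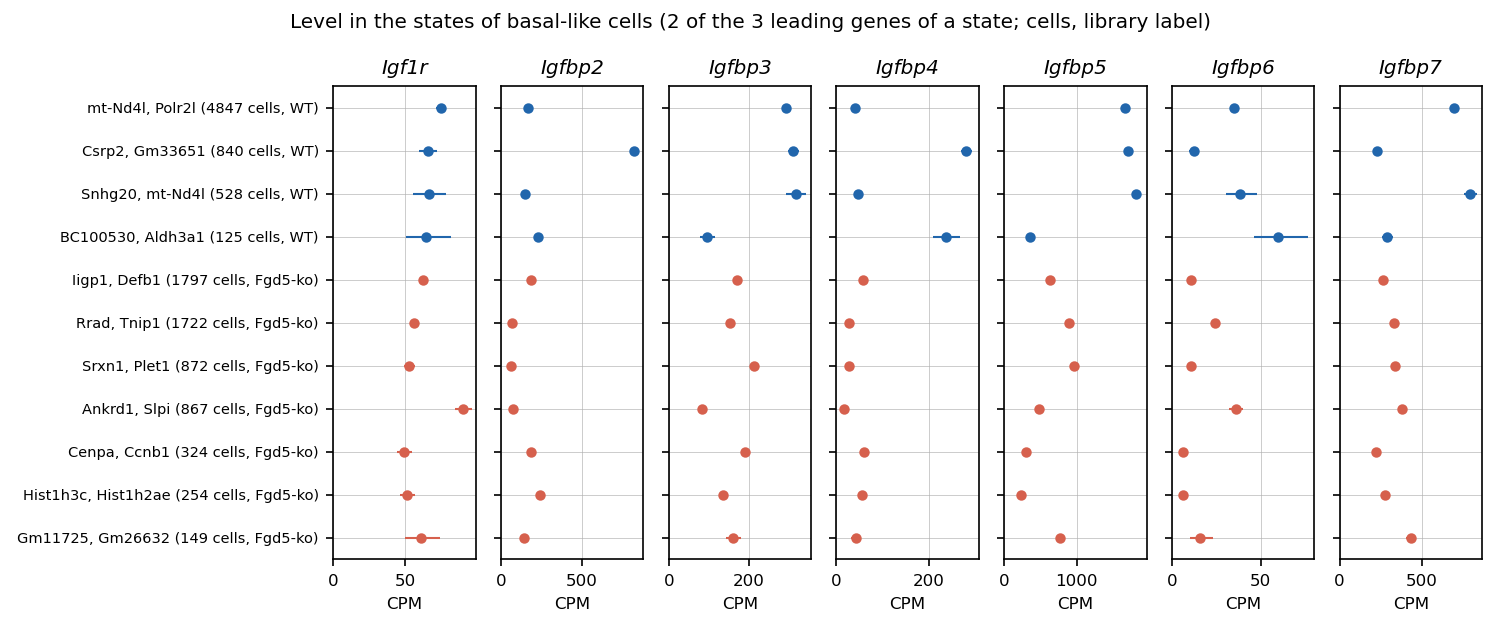
Level of 7 members in each basal state, in CPM on a linear axis from 0, with exact Poisson 95% intervals; each state is given by 2 of its leading genes and its number of cells and coloured by library (blue for the WT label, red for the Fgd5-ko label). Igfbp2 (823 CPM) and Igfbp4 (280.4 CPM) peak in the Csrp2 state of the library labelled WT, where Igfbp7 is at its lowest for that library (225 CPM).

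The mixed state led by Ly6d, BC100530 and Aldh3a1 (125 cells of the library labelled WT and 44 of the other) was also high in Igfbp4 in the library labelled WT, at 236 CPM, with 230.4 CPM of Igfbp2. Its Igfbp5 was low, at 350.3 CPM (315 to 388). It held 3 of the 4 basal Igf2 UMIs of that library. In the library labelled Fgd5-ko, Igfbp2 ranged from 61.6 CPM in the state led by Cxcl2, Srxn1 and Plet1 to 239 CPM in the state led by Hist1h1b, and Igfbp4 from 17.0 CPM in the state led by Gm8797, Ankrd1 and Slpi to 60.4 CPM in the state led by Cenpf. Cenpf and Hist1h1b are known cell cycle genes. Those states had the lowest Igfbp5 of that library, 299.6 and 229.8 CPM, against 480 to 965 in its other states.

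Igf1r ranged over the states from 49.3 CPM in the Cenpf state to 90.4 CPM (84.5 to 96.6) in the state led by Gm8797, Ankrd1 and Slpi. Every state of the library labelled WT lay between 64.7 and 74.7 CPM. Igfbp3 ranged from 95.2 to 316 CPM in the library labelled WT, lowest in the Ly6d state, and from 83.2 to 212 CPM in the library labelled Fgd5-ko. Igfbp6 was highest in the Ly6d state (60.0 CPM) in the former and in the Gm8797, Ankrd1 and Slpi state (36.0 CPM) in the latter.

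The library difference in Igfbp2 and Igfbp4 depended on which basal cells were compared. Without the Csrp2 state the log2 ratio was -0.38 for Igfbp2 and -0.23 for Igfbp4. Between the largest state of each library the ratios were 0.15 and 0.51, so that the sign was reversed. Among cells of 4000 to 12000 UMIs (4452 and 1572 cells) they were -3.01 and -1.88. The median depth of these cells still differed between the libraries, at 5570.5 and 9634.5 UMIs. Igfbp5 was -1.27, -1.41 and -1.22 under the same choices, Igfbp3 -0.84, -0.78 and -1.05, and Igfbp7 -1.18, -1.40 and -0.82.

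Depth per cell moved with Igfbp2 and Igfbp4 inside each library. The basal-like cells of each library were split into 4 groups of equal size by UMIs per cell. In the library labelled WT, with median depths of 3321, 4434, 5614 and 8519 UMIs, Igfbp2 stood at 84.7, 90.1, 235 and 499 CPM. In the library labelled Fgd5-ko, at 9461, 13706, 18146 and 27005 UMIs, it stood at 38.0, 89.9, 147 and 167 CPM. Igfbp4 likewise was 42.7 CPM in the shallowest and 149 CPM in the deepest group of the former, and 26.0 and 46.3 CPM in the latter. The Csrp2 state was the deeper of the large states of its library, with a median of 7597 UMIs per cell against 4821 in the largest state. Igfbp5 stayed between 1552 and 1718 CPM over the 4 groups of the library labelled WT and between 652 and 753 CPM over those of the library labelled Fgd5-ko. Igfbp3 went from 272 CPM in the shallowest to 296 CPM in the deepest group under the WT label, and from 139 to 166 CPM under the Fgd5-ko label. Igfbp7, Igfbp6 and Igf1r were lower in the deepest group than in the shallowest. Igfbp7 went from 691 to 471 CPM under the WT label and from 340 to 279 CPM under the Fgd5-ko label. For Igfbp6 these were 35.5 to 27.8 and 24.0 to 13.2 CPM, and for Igf1r 89.2 to 69.7 and 73.9 to 57.6 CPM. The part of depth in the values of any member was not tested.

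**Figure D5:**
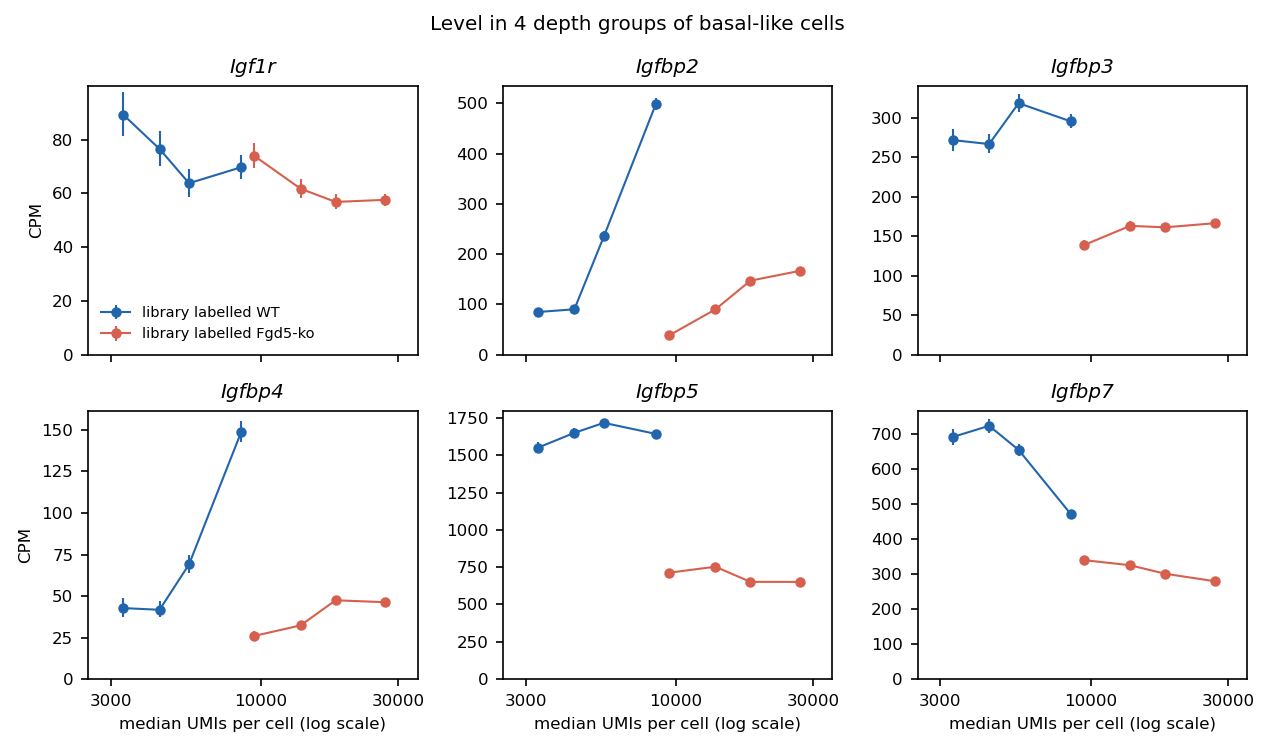
Level of 6 members in basal-like cells split into 4 groups by UMIs per cell, in CPM, against the median UMIs per cell of each group (log axis), for both libraries. Igfbp2 goes from 84.7 to 499 CPM in the library labelled WT and from 38.0 to 167 CPM in the library labelled Fgd5-ko, while Igfbp5 stays within 1552 to 1718 and 652 to 753 CPM.

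The pair also met in single cells. After thinning, Igfbp4 was found in 22.1% of the Igfbp2-positive basal-like cells of the library labelled WT and in 8.98% of the others. In the library labelled Fgd5-ko the shares were 10.8% and 5.86%. Igfbp7 was found in 52.2% of the Igfbp2-positive cells of the library labelled WT and in 68.0% of the others. These shares describe cells of 1 library each and carry no test.

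Igfbp3, the main carrier of circulating IGF, was found in basal-like cells and in stroma, and its library difference had opposite signs in basal-like and fibroblast-like cells. Basal-like cells held 292 CPM (287 to 298) and 161 CPM (158 to 163), a log2 ratio of -0.86 (-0.90 to -0.83). Basal-like barcodes outside the list held 149 and 165 CPM, with an interval that held 0 (0.14, -0.04 to 0.33). Fibroblast-like barcodes held 179 and 279.6 CPM, with a ratio of 0.64 (0.53 to 0.76). Endothelial-like barcodes held 146 and 75.2 CPM, and luminal progenitor-like cells 25.9 and 23.9 CPM. The Angptl1 and Smoc2 cluster, the highest for Igf1, was also high for Igfbp3, at 1705 and 1491 CPM. Over the 10 shared clusters the Igfbp3 interval lay below 0 in 6, above 0 in 1 and held 0 in 3.

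Igfbp6, which prefers IGF2, was mainly a fibroblast gene. Fibroblast-like barcodes held 4327 and 2795 CPM (a log2 ratio of -0.63), and their Krtdap and Pi16 cluster 5578 CPM. Schwann-like barcodes of the library labelled WT (54 barcodes) held 1553 CPM. Basal-like cells held 31.8 CPM (30 to 33.7) and 16.5 CPM (15.7 to 17.3), a ratio of -0.95 (-1.06 to -0.84). The level that fibroblast RNA would carry into basal-like cells, scaled as for Igf1, was 6.66 and 3.24 CPM. For Igfbp5 the same estimate was 7.52 and 1.72 CPM, a small part of the measured basal level. Mural barcodes held 16.5 CPM (11 UMIs) and 86.9 CPM (51 UMIs) of Igfbp6, a ratio of 2.40 (1.44 to 3.49). That ratio rests on 1 cluster: the mural cluster led by Nrip2 and Tesc (120 and 51 barcodes) held 11.9 CPM (5 UMIs) and 5.78 CPM (2 UMIs), and the rest of the UMIs fell in the cluster led by H2-M9 and Colec11 (75 and 33 barcodes).

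Igfbp7 was a vascular gene with a basal component. Endothelial-like barcodes held 6113 and 6305 CPM (0.04, 0.02 to 0.07) and mural barcodes 6080.4 and 4355 CPM (-0.48, -0.55 to -0.41). The highest cluster was the endothelial-like one led by Hbb-bs and Esm1, at 12786 and 13053 CPM. Fibroblast-like barcodes held 760.4 and 1054 CPM (0.47, 0.42 to 0.53). Neither fibroblast-like cluster with at least 50 barcodes of both libraries showed this: the Crabp1 cluster held 1806 and 1827 CPM (0.02, -0.05 to 0.09) and the Angptl1 and Smoc2 cluster 3618 and 2753 CPM (-0.39, -0.51 to -0.28). Over all fibroblast-like clusters the level ranged from 83.1 CPM (Krtdap and Pi16, library labelled WT) to 3618 CPM (Angptl1 and Smoc2, library labelled WT). Basal-like cells held 599 CPM (591 to 607) and 302 CPM (299 to 305), a log2 ratio of -0.99 (-1.01 to -0.96). Basal-like barcodes outside the list ran the other way, at 180.0 and 283 CPM (0.65, 0.49 to 0.82). B cell-like barcodes (27 and 8), which should lack the gene, showed 2004 and 1215 CPM; luminal progenitor-like barcodes outside the list showed 74.2 and 75.5 CPM. The part of free RNA and of doublets in these values was not tested. Among listed cells, the luminal progenitor-like ones held 107 and 71.7 CPM and the hormone-sensing luminal-like ones of the library labelled WT 32.5 CPM, both below basal-like cells.

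After thinning, the share of basal-like cells with a UMI was lower in the library labelled Fgd5-ko for Igfbp7 (64.3% and 44.2%), Igfbp3 (36.2% and 23.5%), Igf1r (13.5% and 11%), Igfbp4 (12.1% and 6.63%) and Igfbp6 (5.75% and 3.09%). Without thinning, the deeper library showed the larger share for Igfbp7 (85.3% and 93.5%), Igfbp3 (59.2% and 70.1%), Igf1r (31.1% and 58.6%) and Igfbp4 (25.0% and 37.1%). The unthinned order thus went against the CPM, and no direction is read from it. Of the listed hormone-sensing luminal-like cells of the library labelled WT, 1.89% held an Igfbp7 UMI after thinning.

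Likeness of pattern was measured as Pearson's r of log2(CPM + 1) over 51 sums of cluster and library, among 11207 genes; the sums share libraries and depth, and r is given as a description. Igfbp2 was most like Col7a1 (0.92), Slc7a5 (0.90) and Tns4 (0.89). Igfbp4 was most like Csrp2, St3gal2 and Epb41l2 (0.80 each), and Csrp2 is a leading gene of the state of 840 cells above. Igfbp6 was most like Omd, Mfap5 (0.94 each) and Efemp1 (0.92), Igf1 most like Tmem106a, Nid1 and Ifi204 (0.89 each), and Igfbp7 most like Gng11 (0.87), Sparcl1 (0.86) and Plxnd1 (0.85). Weaker neighbours were found for Igfbp5 (Plce1 and Prelp 0.80, Rbms3 0.78), Igf1r (Gprasp1 0.75, Degs1 and Tgfbr3 0.72), Igf2 (Lmod3 and Gkn3 0.75, Col8a1 0.72) and Igfbp3 (Spock2 0.67, Ppib 0.64, Selenom 0.63). Between members the highest values were 0.68 for Igf1 with Igfbp6 and 0.67 for Igf1 with Igfbp4. Igfbp2 with Igfbp4 had -0.18 over these sums of all classes, and Igfbp2 with Igfbp5 had 0.42. The pattern that Igfbp2 and Igfbp4 shared over basal states was thus not seen across classes.

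The rest of the pathway did not share the members' direction in basal-like cells. Of 43 other IGF pathway genes, 38 had at least 20 UMIs over both libraries; 10 were at least 1.5-fold higher in the library labelled Fgd5-ko, 3 were lower and 25 lay within 1.5-fold. Their median log2 ratio was 0.21, next to 0.23 over all genes, and the share of higher genes is near the 26.9% of all genes. The genes past 1.5-fold at a mean of at least 20 CPM were all higher. Irs2, a docking protein of the receptor, was at 88.9 CPM in the library labelled WT and 174 CPM in the library labelled Fgd5-ko (0.97, 0.91 to 1.02). Pappa, the protease of IGFBP4, was at 35.0 and 61.0 CPM (0.80). Socs2, a brake on growth hormone signalling, was at 54.2 and 93.5 CPM (0.79). The FOXO factors that AKT holds in the cytoplasm also had higher values, with Foxo1 at 31.2 and 55.9 CPM (0.84) and Foxo3 at 15.2 and 27.6 CPM (0.86).

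Of the 16 genes of the PI3K, AKT and mTOR arm, 13 lay within 1.5-fold and 3 were higher: Foxo1, Foxo3 and Mtor, the last at 8.13 and 13.8 CPM (0.76) and named after its value was seen. Pik3r1, the regulatory subunit of PI3K, was at 292 and 285 CPM (-0.03), Gsk3b at 93.1 and 73.5 CPM (-0.34), and Akt1 at 56.2 and 57.2 CPM. Htra1, a secreted protease, was at 58.8 and 63.9 CPM. The 3 measured genes of receptors and clearance all lay within 1.5-fold, with a median of -0.18. The 3 lower genes, named after their values were seen, were all of low level: H19, the imprinted neighbour of Igf2, at 1.37 and 0.406 CPM (-1.76), Htra3 (-1.33) and Grb10 (-1.16), an adaptor that restrains the receptor.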

How the data were processed

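Polyadenylated RNA of single cells was measured in 2 libraries. The deposited matrices hold whole-number UMI counts per gene and barcode, which the authors made with Cell Ranger (version 3.1.0 per the file headers). Seurat 3.0 and mm9 are named in the submitters' processing notes. The files hold no gene coordinates, and 30934 of 31053 gene IDs (99.6%) were found in GENCODE M21. A deposited table of cell coordinates gave the listed cells; its values were not used.

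Barcodes outside it were kept at 1000 or more UMIs, 500 or more genes and at most 15% mitochondrial UMIs; doublets were not removed. Listed cells and other barcodes were clustered apart with scanpy 1.11.5 and leidenalg 0.10.2 (2000 variable genes, 30 components, 15 neighbours, resolution 1, and 0.5 for basal states, on counts scaled to 10000 per cell), without IGF genes. Clusters were named "-like" from 12 marker lists. The limits of the naming rule were set after seeing the data and loosened: stricter forms left basal clusters led by Coch (773 cells) and Gm3336 (180 cells) of the library labelled Fgd5-ko unnamed. Members and lists were chosen with earlier results of these data known.

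UMIs were summed per class and library, as CPM with exact Poisson intervals and ratios with exact conditional intervals, both 95%; shares were taken after thinning each cell to 2000 UMIs. Ratios need 20 UMIs over both libraries, and calls a 1.5-fold ratio. On simulated Poisson counts of 14925 genes, 95.8% of intervals held the true ratio. The intervals assume such counts, which hold no variation between cells or libraries, so this checks the calculation only. The text names the 9 members everywhere, pathway genes past 1.5-fold at a mean of 20 CPM and the 4 others of highest mean, the 3 genes most like each member, and leading genes of clusters; a gene covered by this rule is not reported here. TMM factors came from edgeR 4.0.16. Promoters are RefSeq's, on GRCm38.p6. Samples were grouped by their genotype label.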

Additional observations from a re-analysis of the deposited data

Results flagged for a closer look

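For 5 pairs of classes the library difference (log2 ratio, Fgd5-ko over WT) had opposite signs, each beyond counting error; none of these differences was tested, because each class had 1 library per group. The fibroblast-like ratio of Igfbp2 less its basal-like ratio was 2.08. For Igfbp3 that difference was 1.51, and for Igfbp7 it was 1.46. The endothelial-like ratio of Igfbp7 less its basal-like ratio was 1.03, with an endothelial-like ratio of 0.04. In the shared Hbb-bs and Esm1 cluster the Igfbp7 ratio was 0.03 (-0.005 to 0.065). In a shared endothelial-like cluster of 168 and 87 barcodes it was -0.60 (-0.70 to -0.50). For Igfbp6 the mural ratio less the basal-like ratio was 3.34, and it rests on 11 and 51 mural UMIs; in the mural cluster led by Nrip2 and Tesc these were 5 and 2. The fibroblast-like class was made of different clusters in the 2 libraries. In the Crabp1 cluster, which both libraries filled, the ratio was 0.27 (-0.19 to 0.74) for Igfbp2, 0.02 (-0.05 to 0.09) for Igfbp7 and 1.08 (0.62 to 1.57) for Igfbp3. In the Angptl1 and Smoc2 cluster, likewise shared, it was -0.39 for Igfbp7 and -0.19 for Igfbp3. In basal-like barcodes outside the list Igfbp7 was at 0.65 and Igfbp3 at 0.14.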

How the results depend on the processing

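No paired analysis was possible because there is 1 library per group. Over 14 alternatives the log2 ratio in basal-like cells stayed below 0 for Igf1 (-2.41 to -1.74), Igfbp3 (-1.05 to -0.78), Igfbp5 (-1.49 to -1.15), Igfbp6 (-1.68 to -0.50) and Igfbp7 (-1.40 to -0.82). It ranged from -0.45 to 0.10 for Igf1r. Igfbp2 (-3.01 to 0.15) and Igfbp4 (-1.88 to 0.51) changed sign between the largest state of each library, at 0.15 and 0.51. That choice and those without the Csrp2 state and without the states led by Cenpf and Hist1h1b were made after seeing the data. So were the choices of cells of 4000 to 12000 UMIs and without the clusters led by Coch and Gm3336. At 2-fold 4 members were lower (Igf1, Igfbp2, Igfbp4 and Igfbp5) with 3 pathway genes higher (Igfals, Stc1 and Igfbpl1) and 3 lower (H19, Htra3 and Grb10), beside 12.1% higher and 5.27% lower over all genes. The 3 lower pathway genes became 5 with TMM scaling (adding Insr and Irs1) and 6 with median-ratio scaling (adding Tsc2 to those). They became 5 in cells with no UMI of a fibroblast marker other than Dcn (adding Insr and Igf2bp2). Over all genes, 10.2% were lower and 26.2% higher in those cells, and 14.4% were lower with TMM scaling. Median-ratio scaling shifted every ratio by -0.19 and turned the all-gene shares into 18.7% higher and 14.9% lower. Precision is limited by UMIs for Igf1 and Igf2 in basal-like cells, and by the number of libraries for every comparison.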
